A study of Mus musculus with 12 samples.

Results

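The comparison described here asked whether breathing a citrus odor altered how each transcript was divided between the 2 cell fractions, GFP+ and GFP-, sorted from the olfactory mucosa. For each gene and each pool of mice, the log2 value of the GFP- cells was subtracted from that of the GFP+ cells, which gives the sort difference of that pool. The mean sort difference of the 3 vehicle pools was then subtracted from that of the 3 odor pools. A result above 0 says that the transcript lay more toward the GFP+ cells in odor mice than in vehicle mice, and a result below 0 says the reverse. All 6 pools of the series entered, with 2 arrays each, which are 12 of the 12 arrays.

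Every mouse, the vehicle mice included, carried the S100a5-tauGFP reporter, and the 18 mice were of both sexes and 7 to 12 weeks old. Each spent 40 hours alone in a chamber with clean air flowing at 3.1 L per minute. From 26 hours on, odor mice received 10-second pulses of a citrus accord, named at 5% in the series title, every 20 minutes, and vehicle mice received pulses of filtered air on the same schedule. Dissociated mucosa was sorted by fluorescence, RNA from 3 mice went onto each Mouse Gene 1.0 ST array, and the 4 groups (odor GFP+, odor GFP-, vehicle GFP+ and vehicle GFP-) have 3 arrays each. The odor pools carry the numbers 2, 3 and 4 in the labels and the vehicle pools 1, 2 and 4. A code in brackets in each label numbers the pools of each treatment 1, 2 and 3 in the same order. Since 18 mice in samples of 3 make 6 pools, GFP+ and GFP- arrays of 1 treatment and number are taken to come from the same mice. The labels do not say so in words. The sources used here give neither the composition of the accord, nor the structure of the reporter allele, nor how the sexes were spread over the pools.

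Odorant receptors are the G protein-coupled receptors with which olfactory sensory neurons detect volatile molecules, and a mature neuron uses a single receptor gene out of a family of many. S100a5 encodes a calcium-binding protein whose transcription in these neurons depends on their activity, so a fluorescent protein under its control marks neurons that have been active. In an assay of this kind, a receptor whose neurons are driven by the odor is looked for among transcripts that shift from the GFP- to the GFP+ cells. In RNA from many cells, a difference in the number of cells that use a receptor cannot be told apart from a difference in receptor RNA per cell. Probes for odorant receptors may also bind the RNA of closely related family members.

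The sequences at the start of 4 receptor genes are shown because these genes carried the most distinct differences in each direction: Olfr747 and Olfr1284 above 0, and Olfr1208 and Olfr292 below 0. Each is 300 bases, from 250 before to 50 after the gene start annotated by RefSeq on GRCm38.p6, and capitals mark each match to TAATNA, the core bound by many homeodomain proteins, on either strand. The windows are chr14:50681596-50681895 (minus strand) for Olfr747, chr2:111378752-111379051 (plus) for Olfr1284, chr2:88897599-88897898 (minus) for Olfr1208 and chr7:86688091-86688390 (plus) for Olfr292.
Olfr747: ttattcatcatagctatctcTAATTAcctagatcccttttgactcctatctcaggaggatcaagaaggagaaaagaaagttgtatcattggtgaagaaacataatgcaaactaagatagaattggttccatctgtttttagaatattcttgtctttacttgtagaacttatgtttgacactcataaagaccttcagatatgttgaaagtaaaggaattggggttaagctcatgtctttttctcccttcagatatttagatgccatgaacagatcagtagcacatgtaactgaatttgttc
Olfr1284: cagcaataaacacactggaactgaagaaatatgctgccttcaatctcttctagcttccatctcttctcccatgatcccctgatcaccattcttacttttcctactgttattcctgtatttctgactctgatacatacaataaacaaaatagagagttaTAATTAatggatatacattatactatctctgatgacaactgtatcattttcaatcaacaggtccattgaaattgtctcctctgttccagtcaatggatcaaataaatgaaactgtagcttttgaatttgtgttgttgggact
Olfr1208: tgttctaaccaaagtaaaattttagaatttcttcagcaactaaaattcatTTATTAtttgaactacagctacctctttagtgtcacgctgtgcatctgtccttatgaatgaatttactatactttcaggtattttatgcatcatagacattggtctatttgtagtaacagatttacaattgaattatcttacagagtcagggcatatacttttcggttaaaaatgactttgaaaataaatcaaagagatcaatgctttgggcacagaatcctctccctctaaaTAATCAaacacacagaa
Olfr292: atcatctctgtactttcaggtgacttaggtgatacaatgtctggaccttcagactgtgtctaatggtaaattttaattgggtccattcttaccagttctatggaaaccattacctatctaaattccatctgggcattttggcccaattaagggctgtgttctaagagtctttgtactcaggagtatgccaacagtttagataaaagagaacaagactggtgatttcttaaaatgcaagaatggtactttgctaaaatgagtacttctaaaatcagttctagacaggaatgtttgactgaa
Where an annotated start lies close to the coding start, the window need not be the promoter. Olfr747 and Olfr1284 have 1 match each, Olfr1208 has 2 and Olfr292 has 0. Of 944 windows of odorant receptors 65.9% hold a match, against 26.5% of all 32851 windows, so a match does not set these 4 genes apart from other receptors. A window was found for 863 of the 1015 receptors measured.

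Olfr747, an odorant receptor gene on chromosome 14 (probe set 10419456), had the largest difference and the smallest p of all genes, but missed the threshold after adjustment. In the GFP+ cells its log2 values were 7.51, 8.05 and 7.56 in odor pools 2, 3 and 4, and 5.88, 6.33 and 6.22 in vehicle pools 1, 2 and 4. In the GFP- cells they were 5.80, 5.73 and 5.55 with odor and 6.37, 6.53 and 5.99 with vehicle. All 3 odor pools were thus above every vehicle pool in the GFP+ cells and below every vehicle pool in the GFP- cells, with no overlap in either fraction.

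Within pools, the sort difference of Olfr747 was 1.71, 2.32 and 2.02 in the odor pools and -0.49, -0.20 and 0.22 in the vehicle pools. The receptor was therefore clearly more abundant in the GFP+ than in the GFP- cells of every odor pool and near equal between the fractions of the vehicle pools. The means were 2.02 ± 0.30 and -0.16 ± 0.36 (SD, n = 3 pools each), which differ by 2.17 (SE 0.21), or 4.51-fold. Of this, 1.57 (SE 0.17) came from the GFP+ cells and -0.61 (SE 0.17) from the GFP- cells, so both fractions contributed, in opposite directions. With limma on the pool differences the unadjusted p was 2.64e-06 and the Benjamini-Hochberg adjusted p over 19938 genes was 0.0526, just past 0.05. Over 17 alternative settings the difference stayed between 1.85 and 2.36 and the adjusted p between 0.000511 and 0.450. It was under 0.05 in 9 of them, among these the fit of 12 arrays without the replicate block that joins the fractions of a pool (adjusted p = 0.0186). Without odor pool 2 the adjusted p was 0.0325 and without vehicle pool 4 it was 0.0448. Leaving out any other single pool gave 0.0707 to 0.414. After quantile normalization the adjusted p was 0.161 and after cyclic loess 0.450. An exact permutation test of the 6 pool values gave a two-sided p of 0.1, the smallest that 3 against 3 pools allow.

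**Figure D1:**
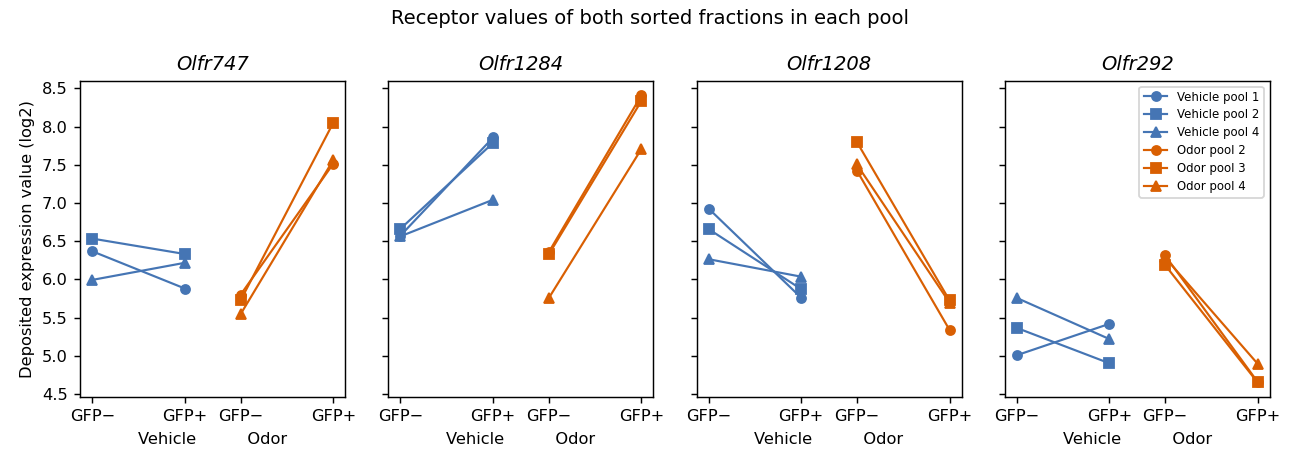
Deposited log2 values (y axis) of Olfr747, Olfr1284, Olfr1208 and Olfr292 in the GFP- and GFP+ cells (x axis) of the 3 vehicle pools (blue) and the 3 odor pools (orange). Each line joins the fractions of 1 pool, so its slope is the sort difference. For Olfr747 the odor lines climb by 1.71 to 2.32 while the vehicle lines lie between -0.49 and 0.22. For Olfr1208 the odor lines drop more steeply than the vehicle lines. For Olfr292 they drop more steeply than the lines of vehicle pools 2 and 4, while that of vehicle pool 1 climbs by 0.41.

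The receptor genes next to Olfr747 on chromosome 14 had smaller values or values of the other sign. Of the 8 receptors up to 4 places away, Olfr745 had the largest positive value, 0.59 (SE 0.24, unadjusted p = 0.0332), with sort differences of 2.71, 3.57 and 3.56 in the odor pools and 2.68, 2.44 and 2.94 in the vehicle pools. The odor and vehicle pools of Olfr745 overlap, and its difference came from the GFP- cells (-0.55) and hardly from the GFP+ cells (0.047). Olfr743 went the other way, at -0.87 (SE 0.29, unadjusted p = 0.0152). The other 6, Olfr744, Olfr746, Olfr748, Olfr749, Olfr750 and Olfr221, lay between -0.40 and -0.038 with unadjusted p of 0.0813 or more.

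With limma and Benjamini-Hochberg adjustment, 0 of 19938 genes (0%) passed 0.05, and 0 of the 1015 odorant receptors. At an unadjusted p under 0.05, 932 genes (4.67%) were counted, 599 with a higher sort difference in odor pools (3.00% of all genes) and 333 with a lower one (1.67%). Among the odorant receptors 31 were higher (3.05%) and 82 lower (8.08%) at that level, so the higher receptors were at the share of all genes and the lower ones above it. The split of all genes changed with the scaling between arrays, to 367 higher and 396 lower after quantile normalization, 280 and 641 after cyclic loess and 288 and 614 after median centring. The split of receptors was 21 and 82, 20 and 104, and 21 and 106 under the same 3 scalings.

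The pools of both treatments did not overlap for 1325 genes in the higher direction (6.65%) and for 742 in the lower (3.72%). Among odorant receptors 25 (2.46%) did not overlap in the higher direction and 55 (5.42%) in the lower. The median difference over the 1015 receptors was -0.084, and 368 of them (36.3%) lay above 0, against a median of 0.015 and 54.2% over all genes. The value of a receptor was also less precise than that of an average gene, with a median SE of 0.238 against 0.129. Of 15 genes with an absolute difference over 1, 14 were odorant receptors, 4 higher and 10 lower.

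These receptor counts changed when a single pool was left out. Without vehicle pool 4, 65 receptors were higher and 43 lower, and the median was 0.035. Without odor pool 2 the counts were 68 and 69 and the median 0.012, so leaving out either pool turned the sign of the receptor median. Without odor pool 4 they were 17 and 98, and without vehicle pool 1 they were 17 and 116. Weights for the pools from limma gave 51 and 67 with a median of 0.0021, and centring the receptors of each array on their own median gave 68 and 54. Over all genes, the counts were 699 higher and 785 lower without odor pool 2, 279 and 220 without odor pool 4, and 331 and 319 without vehicle pool 4.

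In both directions the counted receptors mostly had opposite values in the 2 fractions, which choosing them by a difference of differences favours. Of the 31 higher receptors, 27 had opposite signs in the fractions, and the larger part lay in the GFP- cells for 19 and in the GFP+ cells for 12. The median odor-minus-vehicle value of these 31 was 0.15 in the GFP+ cells and -0.33 in the GFP- cells. Of the 82 lower receptors, 74 had opposite signs, with medians of -0.30 in the GFP+ and 0.34 in the GFP- cells. The 31 lay on 11 chromosomes and the 82 on 12. Among the 12 chromosomes that each hold 21 or more receptors, the receptor median ran from -0.16 on chromosome 10 (56 receptors, 0 higher and 7 lower) to -0.012 on chromosome 4 (21 receptors, 0 higher and 1 lower). Chromosome 2, with the most receptors (272), had a median of -0.13, with 8 higher and 26 lower.

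**Figure D2:**
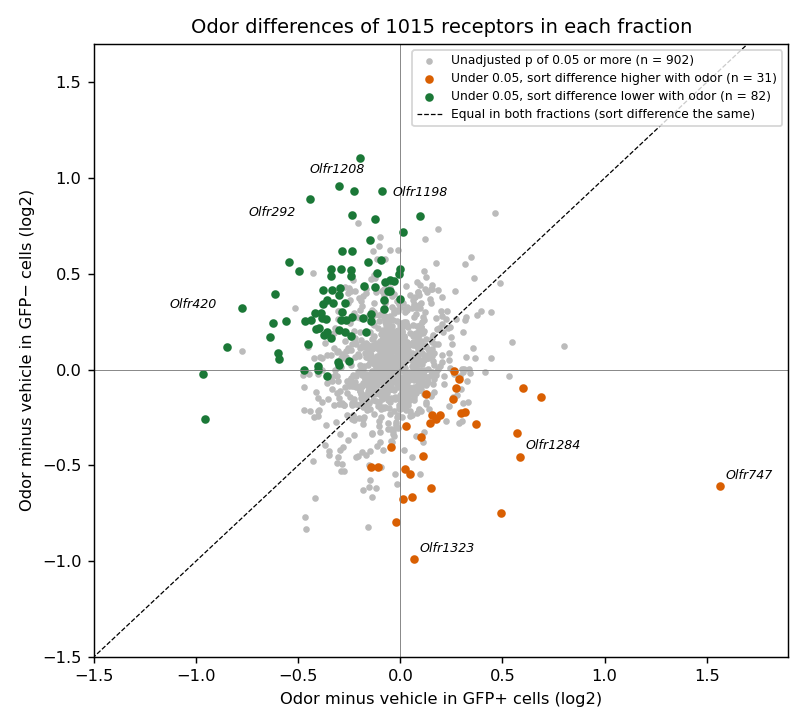
Odor minus vehicle (log2) of 1015 odorant receptors in the GFP+ cells (x axis) and in the GFP- cells (y axis), 1 point per receptor. The horizontal offset from the dashed line, where both are equal, is the odor effect on the sort difference, positive to the right of the line. Orange points are the 31 receptors higher and green points the 82 lower at an unadjusted p under 0.05, and Olfr747, at 1.57 and -0.61, lies apart from the others.

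After Olfr747, the receptor with the smallest p among those higher in the odor pools was Olfr1284, on chromosome 2. Its sort difference was 2.05, 2.01 and 1.95 in the odor pools and 1.29, 1.13 and 0.48 in the vehicle pools. The odor pools lay close together and above all vehicle pools. The receptor was thus more abundant in the GFP+ cells of all 6 pools, and more so with odor, by 1.04 (SE 0.19, adjusted p = 0.819). The GFP+ part was 0.59 (SE 0.23) and the GFP- part -0.45 (SE 0.23), and the GFP+ values themselves overlapped (7.71 to 8.41 with odor, 7.04 to 7.86 with vehicle). Of its 8 neighbours up to 4 places away, 4 had values of the other sign with an unadjusted p from 0.00476 to 0.0482: Olfr1280 at -0.70, Olfr1281 at -0.81, Olfr1283 at -0.71 and Olfr1286 at -0.61. The other 4, Olfr1282, Olfr1288, Olfr1289 and Olfr1290, lay between -0.087 and 0.18.

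Olfr1323, on the X chromosome, had sort differences of 3.38, 3.25 and 2.79 in the odor pools and 1.76, 2.00 and 2.48 in the vehicle pools. Its difference of 1.06 (SE 0.21, adjusted p = 0.917) lay almost wholly in the GFP- cells, with a part of -0.99 (SE 0.41) there and 0.066 (SE 0.41) in the GFP+ cells. The GFP- values of this receptor varied widely among the vehicle pools, at 7.76, 7.00 and 5.91, against 5.94, 6.12 and 5.63 in the odor pools. Olfr237 was the opposite case, a receptor mainly of the GFP- cells. Its sort differences were -2.79, -2.83 and -2.63 in the odor pools and -3.58, -3.16 and -4.00 in the vehicle pools, and its difference of 0.83 (SE 0.19) came mainly from the GFP+ cells (0.69, SE 0.25).

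Olfr901 had the second largest value, 1.24 (SE 0.37), and it was uneven among the pools. The odor pools were at 2.37, 0.65 and 2.08 and the vehicle pools at 0.53, 0.42 and 0.43, so odor pool 3 was barely above the vehicle pools. Without odor pool 3, Olfr901 and Olfr1020 were the 2 genes that passed the adjustment; Olfr1020 was named after its values were seen. Olfr1174 had tighter sort differences of 0.98 to 1.16 in the odor pools and 0.49 to 0.87 in the vehicle pools (difference 0.42, SE 0.13). Olfr108 (0.90, SE 0.23) and Olfr345 (0.36, SE 0.10) were below 4.7 on every array, under the lower quartile of all arrays (5.65 to 5.83).

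Among receptors with a lower sort difference in odor pools, Olfr1208, on chromosome 2, had the smallest p. Its sort differences were -2.09, -2.07 and -1.81 in the odor pools and -1.17, -0.79 and -0.23 in the vehicle pools. This receptor was more abundant in the GFP- cells of all 6 pools and more strongly so with odor, at a difference of -1.26 (SE 0.22, adjusted p = 0.819). Most of it was in the GFP- cells, where odor minus vehicle was 0.96 (SE 0.16), against -0.30 (SE 0.16) in the GFP+ cells. The GFP- values were 7.43, 7.80 and 7.50 with odor and 6.93, 6.66 and 6.26 with vehicle, without overlap.

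Olfr292, on chromosome 7, had the lowest value of all receptors, -1.33 (SE 0.23, adjusted p = 0.819). Its sort differences were -1.66, -1.54 and -1.39 in the odor pools and 0.41, -0.46 and -0.54 in the vehicle pools. The GFP- part was 0.89 (SE 0.17) and the GFP+ part -0.44 (SE 0.17). The GFP+ values, 4.65 to 4.90 with odor and 4.90 to 5.42 with vehicle, were under the lower quartile of the arrays. Olfr1198, on chromosome 2, differed by -1.02 (SE 0.19), with a part of 0.93 (SE 0.24) in the GFP- cells and of -0.089 (SE 0.24) in the GFP+ cells. Its GFP+ values, 3.79 to 4.70 over all pools, and its GFP- values in vehicle pools, 4.77 to 5.34, were under the lower quartile of the arrays too.

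Olfr420, on chromosome 1, differed in the GFP+ cells more than in the GFP- cells. Its sort differences were -0.092, 0.50 and 0.033 in the odor pools and 0.94, 1.25 and 1.53 in the vehicle pools. It was thus more abundant in the GFP+ cells of vehicle mice and near equal between the fractions of odor mice, a difference of -1.09 (SE 0.19, adjusted p = 0.819) with a GFP+ part of -0.78 (SE 0.32). Olfr972 lay strongly toward the GFP- cells in all pools, at -3.80, -3.68 and -3.29 with odor and -2.29, -2.86 and -2.58 with vehicle. Its difference of -1.01 (SE 0.18) was shared evenly by the fractions, -0.50 in the GFP+ and 0.51 in the GFP- cells. Olfr1418, Olfr615 and Olfr51 were more abundant in the GFP+ cells of all 6 pools, and less so with odor, with differences of -0.68 (SE 0.12), -0.76 (SE 0.14) and -1.04 (SE 0.22).

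**Figure D3:**
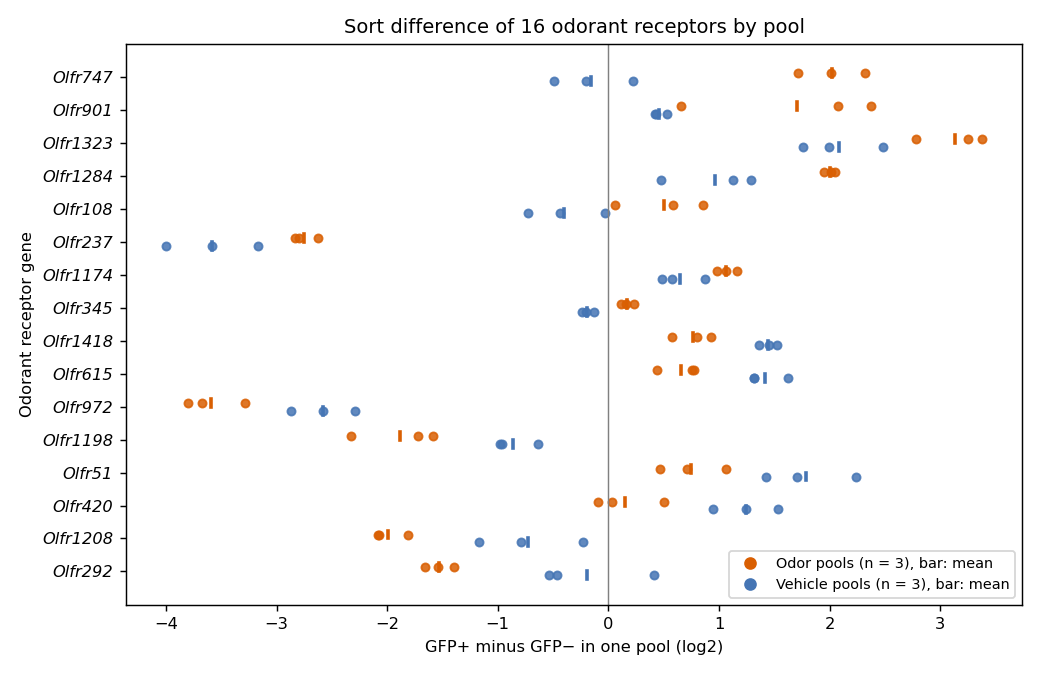
Sort difference (GFP+ minus GFP-, log2, x axis) of 16 odorant receptors (y axis) in each pool, with odor pools in orange, vehicle pools in blue and a bar at the mean of 3 pools. The 8 receptors at the top are higher and the 8 at the bottom lower in odor pools, and they were chosen because their pools do not overlap. The sort differences of Olfr237, Olfr972, Olfr1198 and Olfr1208 are below 0 in all 6 pools.

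Among named genes that encode no chemoreceptor, Cables2, which encodes a protein that binds cyclin-dependent kinases, had the smallest p. Its sort differences were -1.40, -1.51 and -1.47 in the odor pools and -2.06, -2.13 and -2.23 in the vehicle pools. The gene lay toward the GFP- cells in all pools, and less so with odor, by 0.68 (SE 0.10, adjusted p = 0.819), of which 0.49 (SE 0.09) was in the GFP+ cells. The other 5 named for a higher value were Actrt1 (0.55), Cyp2b19 (0.55), Scx (0.46), Pgc (0.55) and Foxc1 (0.56), with SE of 0.10 to 0.13. Cyp2b19 (4.45 to 5.27) and Pgc (4.87 to 5.57) read under the lower quartile of the arrays (5.65 to 5.83) on every array. Actrt1, at 5.25 to 5.90, lay near that quartile. Scx and Foxc1 encode transcription factors of connective tissue and mesenchyme, Cyp2b19 a cytochrome P450 and Pgc the precursor of a gastric protease.

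On the lower side, Dcpp2, a secreted protein of the demilune and parotid protein family, was at -0.93 (SE 0.16), with 0.80 (SE 0.14) in the GFP- cells. Its GFP- values were 5.19, 4.66 and 5.24 with odor and 4.09, 4.25 and 4.36 with vehicle, all under the lower quartile of the arrays. Several others are genes of immune cells or inflammation and lay toward the GFP- cells in every pool. Saa3, an acute phase protein, was at -1.67, -1.75 and -1.59 in the odor pools and -0.87, -1.21 and -0.85 in the vehicle pools (difference -0.70, SE 0.13). Naip2, a sensor of bacterial proteins in macrophages, was at -0.50 (SE 0.12) and Ms4a4c, a membrane protein of leukocytes, at -0.50 (SE 0.11). Cpne2, a copine that binds membranes in a calcium-dependent way, was at -0.53 (SE 0.10), and Rpp14, a subunit of ribonuclease P, at -0.44 (SE 0.11).

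For S100a5, for Omp and for the activity-regulated adhesion molecules the odor and vehicle pools overlapped. The sort difference of S100a5 was 0.24, 0.20 and 0.48 in the odor pools and 0.25, 0.21 and 0.12 in the vehicle pools (difference 0.12, SE 0.12). S100a5 was higher in the GFP+ than in the GFP- cells of all 6 pools, but its probe set read between 5.83 and 6.48, under the array medians of 7.04 to 7.20. Omp, the marker of mature olfactory sensory neurons, read 13.0 to 13.5 in both fractions, with sort differences of 0.17 to 0.43 (difference 0.014, SE 0.11). Kirrel2 and Kirrel3 are adhesion molecules that neuronal activity regulates in opposite directions. Kirrel2 lay toward the GFP+ cells, at 1.35 ± 0.31 with odor and 1.25 ± 0.004 with vehicle (SD, n = 3 pools; difference 0.10, SE 0.16). Kirrel3 was at 0.33 ± 0.16 and 0.43 ± 0.21 (difference -0.10, SE 0.14).

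No member of any gene list passed the adjustment, so the lists are given by their counts at an unadjusted p under 0.05 and their medians, to be read against 3.00% higher, 1.67% lower and a median of 0.015 over all genes. The 11 activity-dependent genes had 0 at that level, 9 above 0 and a median of 0.081. The member with the largest absolute value, the axon receptor subunit Nrp1, was at -0.25 (SE 0.12), with sort differences of 0.41, 0.43 and 0.25 with odor and 0.57, 0.51 and 0.75 with vehicle. The 10 low-activity genes had 0 at that level, 8 above 0 and a median of 0.035, with Plxnc1, a semaphorin receptor, at -0.34 (SE 0.19). Of 17 genes of odor transduction 1 was higher, Cnga3, a cyclic nucleotide-gated channel subunit (0.28, SE 0.11), and the median was 0.062. Cnga3 had the lowest mean level of that list, 6.16, under the array medians of 7.04 to 7.20. Its part was 0.042 in the GFP+ cells and -0.24 in the GFP- cells. The 11 mature neuron markers measured had a median of 0.011 and the 16 immature neuron markers of 0.053, with 0 at that level in either. Adenylyl cyclase Adcy3 was at 0.11 (SE 0.13), the G protein subunit Gng8 of immature neurons at 0.33 (SE 0.16) and the growth cone protein Gap43 at 0.12 (SE 0.15).

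Regulators of receptor choice and trafficking (16 genes) had a median of 0.038 and axon guidance genes (23 measured) of 0.065, with 0 at an unadjusted p under 0.05 in either. Lhx2, a homeodomain factor needed for receptor expression, was at 0.16 (SE 0.12) and Reep1, an accessory protein of receptor transport, at 0.16 (SE 0.20). The lists of other receptor families had medians above 0. That of the odorant receptors was below 0, but its sign changed in some of the alternative settings. The 163 vomeronasal receptors, which belong to another sensory organ, had 6 higher and 0 lower, 114 above 0 and a median of 0.051. Vmn2r74, at 0.66 (SE 0.18), was under 4.3 on every array, and the mean level of the list ran from 4.05 to 4.23. The 13 trace amine receptors had 0 at that level and a median of 0.071, with Taar1 at 0.24 (SE 0.11) and Taar2 at 0.66 (SE 0.40). Their median sort difference in each pool went the other way. It was 0.37, 0.29 and 0.30 in the odor pools and 0.41, 0.51 and 0.43 in the vehicle pools. Of 11 odorant receptor pseudogenes 1 was higher, Olfr367-ps (0.44, SE 0.11), and Olfr1372-ps1 had the largest value (0.64, SE 0.32). The 16 genes of guanylyl cyclase D and necklace neurons had 2 higher and 3 lower and a median of -0.12. The list includes Ms4a genes, which leukocytes express too. Ms4a6b was at -0.72 (SE 0.22), with sort differences of -2.84, -3.84 and -3.50 with odor and -2.61, -2.78 and -2.64 with vehicle.

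Immediate early genes, which are transcribed soon after a cell is stimulated, lay toward the GFP- cells as a list, with median sort differences of -1.03, -2.12 and -2.28 in the odor pools and -1.46, -1.84 and -2.26 in the vehicle pools. Of 18, 1 was higher, and the median of the differences was 0.052. That gene was Npas4, a transcription factor induced by neuronal calcium entry, with sort differences of 0.54, 0.64 and 0.64 in the odor pools and 0.28, 0.30 and 0.20 in the vehicle pools. Its odor pools lay above all vehicle pools, by 0.35 (SE 0.10, unadjusted p = 0.00731, adjusted p = 0.917), and most of this was in the GFP- cells (-0.28, SE 0.09). Npas4 had the lowest mean level of that list, 6.46, and read 5.97 to 6.85, under the array medians of 7.04 to 7.20. Fos was at -2.86 ± 0.46 with odor and -2.66 ± 0.20 with vehicle (SD, n = 3; difference -0.21, SE 0.22) and Egr1 at -2.41 ± 0.41 and -2.32 ± 0.09 (difference -0.091, SE 0.19). Heat shock genes (10 measured) had a median of -0.047 and 0 at an unadjusted p under 0.05, with the chaperone Hspe1 at -0.19 (SE 0.15) and the cochaperone Bag3 at -0.24 (SE 0.23). Of 18 genes of the unfolded protein response 1 was higher, Chac1, an enzyme that degrades glutathione (0.30, SE 0.10), and the median was -0.046.

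Markers of the other cells of the epithelium had medians near 0. They were -0.071 for 14 sustentacular, -0.0014 for 16 Bowman's gland, -0.0099 for 14 microvillous and tuft cell, 0.029 for 10 horizontal basal and 0.052 for 13 respiratory ciliated cell markers, with 0 at an unadjusted p under 0.05 in each. The median sort difference of the respiratory ciliated list was 0.46 to 0.83 over the pools, toward the GFP+ cells like that of mature neuron markers (0.28 to 0.64). That of the sustentacular list was -1.65 to -1.29. Cyp2g1, a cytochrome P450 of sustentacular cells, was at -1.78 ± 0.28 with odor and -1.84 ± 0.24 with vehicle (SD, n = 3; difference 0.055, SE 0.17). The extremes of these lists were Ttr (0.30, SE 0.14), Sox10 (0.23, SE 0.13), Ascl3 (0.24, SE 0.26), Cyp2j6 (-0.24, SE 0.14), Il25 (0.30, SE 0.24), Perp (-0.19, SE 0.17) and Tekt1 (0.18, SE 0.13). Ttr read 4.81 to 5.50, under the lower quartile of the arrays (5.65 to 5.83). Of 15 markers of globose basal and dividing cells 1 was lower, the mitotic cyclin Ccnb2 (-0.47, SE 0.18). Of 20 biotransformation genes 1 was lower, the dehydrogenase Aldh1a7 (-0.27, SE 0.10). Their medians were -0.035 and -0.0099. Of 10 ensheathing glia markers 1 was lower, the neuregulin receptor Erbb3 (-0.26, SE 0.10), with Frzb at -0.29 (SE 0.14). Of 12 endothelial markers 1 was higher, Cdh5 (0.28, SE 0.11), with Emcn at -0.33 (SE 0.21). These 2 lists had medians of 0.055 and 0.012. The 12 fibroblast markers had 0 at that level and a median of 0.017, with Col5a2 at 0.21 (SE 0.11) and Dcn at -0.21 (SE 0.12).

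Immune markers lay strongly toward the GFP- cells in all pools, and they differed among pools of 1 treatment. The median sort difference of the 19 macrophage and myeloid markers was -1.95, -2.58 and -3.12 in odor pools 2, 3 and 4 and -1.64, -2.17 and -2.64 in vehicle pools 1, 2 and 4. The same medians of the 1015 odorant receptors were 0.50, 0.67 and 0.79 in the odor pools and 0.57, 0.61 and 1.03 in the vehicle pools. Within each treatment, the pool with the lower macrophage median thus had the higher receptor median. In both treatments this order also followed the code number in the labels. The part of this order in the receptor differences was not tested. The mean level of the macrophage markers was 9.77 to 10.3 in the GFP- cells of odor pools and 9.78 to 10.0 in those of vehicle pools, and 7.46 to 7.56 and 7.25 to 7.73 in the GFP+ cells. No marker of the list was near the bottom of the scale, the lowest on average being Cd163 at 6.15. For the difference itself, 6 of the 19 macrophage markers lay above 0, with 0 at an unadjusted p under 0.05 and a median of -0.17. H2-Aa was at 0.26 (SE 0.13) and Adgre1 at -0.44 (SE 0.38).

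The sort differences of mature neuron markers ordered the pools in the same way, with medians of 0.28, 0.52 and 0.64 in the odor pools and 0.32, 0.47 and 0.61 in the vehicle pools. Of 13 lymphoid markers measured 2 were lower: Nkg7, a granule protein of cytotoxic cells (-0.59, SE 0.17), and Jchain, the joining chain of antibodies made by plasma cells (-0.99, SE 0.33). Jchain was at 8.41, 8.87 and 8.73 in the GFP- cells of odor pools and at 8.30, 7.80 and 7.33 in those of vehicle pools, without overlap. The list median was -0.043. Of 15 neutrophil markers 1 was lower, the granule enzyme Mpo (-0.59, SE 0.21), with a median of 0.031. The 4 erythroid markers measured had 0 at that level and a median of 0.0096, with Alas2 at -0.34 (SE 0.17). Of 57 ribosomal protein genes 2 were higher and 1 lower, 12 lay above 0 and the median was -0.076, with Rpl3l, the muscle form of a ribosomal protein, at 0.36 (SE 0.12). Of 80 respiratory chain genes 1 was higher, Cox6a2 (0.36, SE 0.11), and the median was -0.013.

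**Figure D4:**
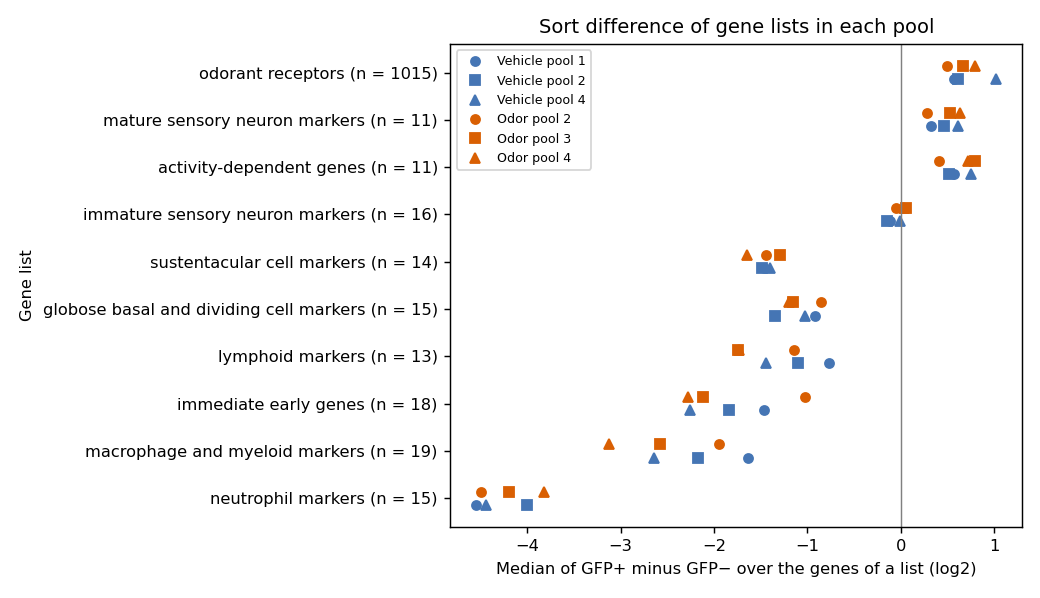
Median sort difference (GFP+ minus GFP-, log2, x axis) of 10 gene lists (y axis) in each of the 3 odor pools (orange) and 3 vehicle pools (blue), with a symbol for each pool. The odor and vehicle pools overlap in all 10 lists. Odorant receptors run from 0.50 to 1.03 and macrophage markers from -3.12 to -1.64.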

How the data were processed

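RNA of GFP+ and GFP- cells from 6 pools of mice was measured on 12 arrays. The authors deposited 1 log2 value for each probe set and array, computed in Affymetrix Expression Console according to the submitters' processing notes. The sources used here give no version, summarization method or scaling between arrays. Values ran from 2.42 to 14.1. There were 0 columns from outside the series.

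Among 35556 probe sets, 21789 had 1 gene symbol, 1621 several and 12146 none in the platform annotation, and only those with 1 symbol were used. For 999 genes with several probe sets the one with the highest mean was used. The resulting 19938 genes include 1015 odorant receptors. Gene identifiers of 21698 probe sets matched the gene reference and 91 did not. No filter on low values was applied.

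GFP+ minus GFP- values of 6 pools were fitted in limma 3.58.1 under R 4.3.3, with two-sided moderated tests. P-values were adjusted by Benjamini-Hochberg over all genes, with a threshold of 0.05, and a self-test on simulated data was run. The parts in each fraction come from a fit of 4 groups on 12 arrays. The p-values measure the spread between pools. Arrays give no counts, so their number limits the precision. Both fractions of a pool come from the same mice, as the labels' numbers of mice give it, and their deviations from the group means correlated with r from 0.0732 to 0.252. Figures were drawn with matplotlib 3.10.9.

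The rule for naming genes takes, per direction, the receptors past 0.05 or, where fewer than 8 passed, the 8 with the smallest p whose pools do not overlap, and 6 other genes by the same rule, without predicted genes, small RNA genes and other chemoreceptors. It always takes S100a5, Omp, Kirrel2, Kirrel3, Fos, Egr1, Gap43 and Cyp2g1, and of each of 31 lists the member with the smallest p and that with the largest absolute value. Chromosome neighbours were named by position. The comparison, the members and the lists were chosen with earlier results of these data known. The 17 alternatives changed pairing, scaling, filter, weights, variance prior, probe set choice, receptor centring and the pools included. Sequences are from RefSeq on GRCm38.p6.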

Additional observations from a re-analysis of the deposited data

How the results depend on the processing

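The direction of all 43 named genes with an unadjusted p under 0.05 was the same under the 17 alternatives. Many of these genes were chosen because their pools do not overlap, so leaving out 1 pool could not turn their sign. Settings that change only the pairing, the variance prior or the genes tested could not turn it either. The count of genes past adjustment was 0 in the main setting and 1, Olfr747, with no replicate block, with the code number as replicate block, with median centring, with array weights, with a trended robust prior and with receptors centred. It was 11, all receptors, with the title number as replicate block (Olfr747, Olfr1020, Olfr1153, Olfr1208, Olfr1446, Olfr178, Olfr420, Olfr51, Olfr814, Olfr847 and Olfr901). That fit rests on 2 and 4, the numbers both treatments share. The labels do not state whether the numbers pair pools across treatments. Deviations of same-numbered pools correlated with r of 0.402, -0.128 and 0.194 by code and 0.0698 and 0.194 by title. Odor pool 3 correlated best with vehicle pool 4. Some list medians, such as those of macrophage markers, odorant receptors and immediate early genes, ran in the same order of code in both treatments. Others, such as that of sustentacular markers, did not. Whether pools with the same code were handled together was not tested. Leaving out 1 pool gave 0 to 2 genes, all receptors, among them Olfr178 without vehicle pool 1. Adjusted p for Olfr747 was 0.161 after quantile normalization, 0.450 after cyclic loess, 0.0569 without the low-value genes (lowest 25% by mean), 0.0537 with the mean of probe sets, and 0.0805, 0.400, 0.0707 and 0.414 without odor pool 3, odor pool 4, vehicle pool 1 and vehicle pool 2. The count of genes at an unadjusted p under 0.05, 932 in the main setting, was 555 without the low-value genes and 499 to 1484 when 1 pool was left out. The count of receptors at that level, 113 of 1015 in the main setting, was 53 with no replicate block, 199 with the code block, 344 with the title block and 71 without the low-value genes. Over all genes, the count was 843 with no replicate block, 1079 with the code block and 1310 with the title block. The cause of these changes was not tested, except that the filter tests 14953 genes, 745 of them receptors. Values near the bottom of the scale limit, among others, Olfr108, Olfr345, Olfr292, Olfr1198, Cyp2b19, Pgc, Dcpp2, Taar1, Ttr and the vomeronasal receptors.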

Other observations

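Of 15618 probe sets outside the gene table, because they have several symbols or none or are not the one kept for their gene, 0 passed 0.05 in limma with Benjamini-Hochberg adjustment. The smallest adjusted p among them was 0.835, and 1109 had an unadjusted p under 0.05.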
